A study of Homo sapiens with 12 samples.

Results

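Olfactory receptor genes encode the G protein-coupled receptors of the sensory neurons of the nose, where each neuron uses a single member of the family and keeps the others silent. They lie in dense arrays on many chromosomes. In tissues outside the nose most members are not known to be transcribed. The family was therefore taken as a reference for how often a mark is scored at genes that a cell does not use. Whether any member is transcribed in the cells studied was not tested. The mark was acetylation of histone H3 at lysine 27 (H3K27ac), which sits at active promoters and enhancers. It was profiled by CUT&RUN, in which an antibody-guided nuclease cuts out marked chromatin for sequencing.

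The family was taken as all protein-coding genes of GENCODE release 44 (hg38) whose symbol is OR followed by a digit, letters and a digit. This gave 415 of 20033 protein-coding genes, on 18 chromosomes, with 178 on chromosome 11 and 65 on chromosome 1. Of these, 57 belonged to class I (the class that mammals share with fish) and 358 to class II. A gene was called marked when a peak lay within 1 kb of the start of any of its annotated transcripts. Some members have 1 annotated start and a short record, such as OR10T2 (chr1:158398522-158399466). Whether transcription begins at such a start was not tested, and where it does not, the window can miss the promoter.

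The cells were HCT116, an established line from a colorectal carcinoma, and all libraries came from this line. The untreated group, the group given 1 μM cobimetinib (an inhibitor of the kinase MEK1) for 24 hours and the group given 100 ng/mL TNFalpha (an inflammatory cytokine) for 24 hours had 2 H3K27ac libraries each, 6 in all. The labels also list 6 libraries with a nonspecific immunoglobulin G, not analysed here, so the counts have no matched antibody control. Nothing in the labels says whether replicates were separate cultures, and p-values therefore measure only the spread between these libraries.

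The 6 peak lists held between 69813 and 124771 peaks. Their sequencing depth is unknown, and whether the length of a list follows it was not tested. Peak names mark untreated 2 as merged after resequencing, and this list stood apart. Of its 124771 peaks, 34.9% had the same width of 169 bp, while in the other 5 lists the commonest width took between 9.28% and 15.9%. Of 8 colon epithelial markers, EPCAM, KRT8, KRT18, KRT19, CDH1 and CDX2 were marked in all 6 lists, and VIL1 and CDX1 in none. Of the markers of other cell types, the fibroblast gene COL1A1 was also marked in all 6 lists, and the endothelial gene CDH5 in none.

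The promoters of the family are unlike those of most genes, and 4 stretches from its members are printed as examples. They are given 5′ to 3′ on the strand of the gene in lower case, with each CpG dinucleotide in capitals. The first is the promoter of OR2L2 (chr1:248029820-248030119, plus strand), a class II gene marked in no library. It was chosen only as close to the median of unmarked genes in CpG count and GC content. A start of OR2L2 lies within 1 kb of a start of a gene outside the family. The second is the promoter of OR1F1 (chr16:3187954-3188253, plus strand), and the third that of OR2A7 (chr7:144264743-144265042, minus strand). These 3 come from RefSeq (GRCh38.p14) and run from 250 bases before to 50 after the start. The fourth was read from hg38 and is 300 bases of an intron of OR51B5 (chr11:5504522-5504821, minus strand), from a stretch of 536 bp that peaks of the 5 libraries other than untreated 2 all covered beside the start.
OR2L2 promoter: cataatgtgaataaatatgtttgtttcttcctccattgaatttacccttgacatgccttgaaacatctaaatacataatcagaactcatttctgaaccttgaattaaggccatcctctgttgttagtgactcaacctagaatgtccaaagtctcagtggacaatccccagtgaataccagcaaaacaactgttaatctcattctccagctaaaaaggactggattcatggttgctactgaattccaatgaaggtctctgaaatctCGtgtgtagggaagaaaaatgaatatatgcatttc
OR1F1 promoter: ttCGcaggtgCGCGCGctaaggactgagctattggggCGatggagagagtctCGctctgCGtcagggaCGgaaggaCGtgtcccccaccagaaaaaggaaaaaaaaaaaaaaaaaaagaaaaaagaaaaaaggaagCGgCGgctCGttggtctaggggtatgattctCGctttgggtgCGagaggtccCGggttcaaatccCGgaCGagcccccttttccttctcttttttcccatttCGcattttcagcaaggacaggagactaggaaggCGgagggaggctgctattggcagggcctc
OR2A7 promoter: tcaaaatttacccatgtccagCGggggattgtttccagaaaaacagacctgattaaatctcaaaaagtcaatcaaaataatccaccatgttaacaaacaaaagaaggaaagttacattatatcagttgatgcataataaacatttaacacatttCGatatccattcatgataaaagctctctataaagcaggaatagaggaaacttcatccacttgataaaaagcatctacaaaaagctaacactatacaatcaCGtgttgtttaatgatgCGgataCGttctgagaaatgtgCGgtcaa
OR51B5 intron: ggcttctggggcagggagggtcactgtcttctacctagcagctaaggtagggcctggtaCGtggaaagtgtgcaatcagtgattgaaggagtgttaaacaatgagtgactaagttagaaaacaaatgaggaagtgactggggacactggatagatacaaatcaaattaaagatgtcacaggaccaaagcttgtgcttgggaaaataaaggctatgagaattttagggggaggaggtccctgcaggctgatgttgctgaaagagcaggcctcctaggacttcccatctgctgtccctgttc
The OR2L2 promoter held 1 CpG dinucleotide, the OR1F1 promoter 19, the OR2A7 promoter 6 and the OR51B5 stretch 1.

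The same 300-base window was read from hg38 for all genes, at the annotated start of the gene. Where transcription begins elsewhere, this window is not the promoter, and how often that holds was not tested. The median olfactory receptor promoter so defined held 1 CpG dinucleotide against 18 for all protein-coding genes. Its median GC content was 38.0% against 60.3%. Only 8 of the 415 promoters held 10 or more CpG dinucleotides, against 13318 of 20033. Letters that factors are known to bind were searched on both strands. The homeodomain word TAATTA was in 21.5% of the family's promoters and 3.79% of all promoters, and the TATA box word TATAAA was in 34.7% and 10.8%. The AP1 word TGANTCA was in 11.3% and 6.38%, and the motif of EBF factors in 1.45% and 1.38%. The OR2L2 promoter printed above held 1 AP1 word, unlike most of the family. TAATTA and TATAAA are made of A and T alone, and the family's promoters are rich in both bases. The 41 genes marked in at least 1 library had the same median of 1 CpG dinucleotide as the 374 marked in none, with a GC content of 40.7% against 37.7%.

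In all 6 libraries the olfactory receptor genes were marked far less often than protein-coding genes as a whole. In the full lists, 7 of 415 were marked in untreated 1, 17 in untreated 2, 8 in cobimetinib 1, 7 in cobimetinib 2, 12 in TNFalpha 1 and 10 in TNFalpha 2. Untreated 2 was the highest, and the other 5 libraries spanned 7 to 12 genes. The shares were 1.69% in untreated 1 (95% Wilson interval 0.819 to 3.44) and 4.10% in untreated 2 (2.57 to 6.46). They were 1.93% (0.98 to 3.76) in cobimetinib 1, 1.69% (0.819 to 3.44) in cobimetinib 2, 2.89% (1.66 to 4.99) in TNFalpha 1 and 2.41% (1.31 to 4.38) in TNFalpha 2. These intervals cover counting error only, they treat neighbouring genes as independent, and they overlapped among all 6 libraries. The mean was 2.45% ± 0.932 (SD, n = 6 libraries).

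Among all 20033 protein-coding genes the marked share was 65.3% in untreated 1, 58.8% in untreated 2, 65.4% in cobimetinib 1, 62.2% in cobimetinib 2, 65.2% in TNFalpha 1 and 61.4% in TNFalpha 2. The library with the most marked olfactory receptor genes was therefore the one with the fewest marked protein-coding genes. The share over all protein-coding genes exceeded that in the family 14.4-fold in untreated 2 and between 22.5-fold and 38.7-fold in the other 5 libraries. The annotation gives an olfactory receptor gene a mean of 1.34 starts and a protein-coding gene 7.31, so an average gene offers more positions at which a peak can fall. A comparison with position alone used the share of the sequenced genome lying within 1 kb of a peak, which was between 5.50% in cobimetinib 2 and 8.88% in TNFalpha 1. The share of marked olfactory receptor genes was below this in every library, at 0.235 times the genome share in untreated 1, 0.473 in untreated 2, 0.243 in cobimetinib 1, 0.307 in cobimetinib 2, 0.326 in TNFalpha 1 and 0.342 in TNFalpha 2. The genome share counts single positions and the family share counts genes with a mean of 1.34 starts, so these shares are not measured alike.

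Among the 20000 highest-scoring peaks of each library, the selection that the study's methods use, the family was nearly empty. It had 2 marked genes in untreated 1, 4 in untreated 2, none in either cobimetinib library, and 1 in each TNFalpha library. The mean share was 0.321% ± 0.363 (SD, n = 6), and it was 0.193% without untreated 2 and 0.201% with the peaks tied at the last selected score left out. A count of 0 of 415 genes allows a share of up to 0.723%, taking 3 counts as the limit, and the upper bound of its 95% Wilson interval is 0.917%. Over all protein-coding genes the same peaks marked 51.6% in untreated 1, 32.5% in untreated 2, 46.8% in cobimetinib 1, 48.1% in cobimetinib 2, 47.4% in TNFalpha 1 and 44.6% in TNFalpha 2. No olfactory receptor gene was marked by the 10000 highest-scoring peaks of any library.

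**Figure D1:**
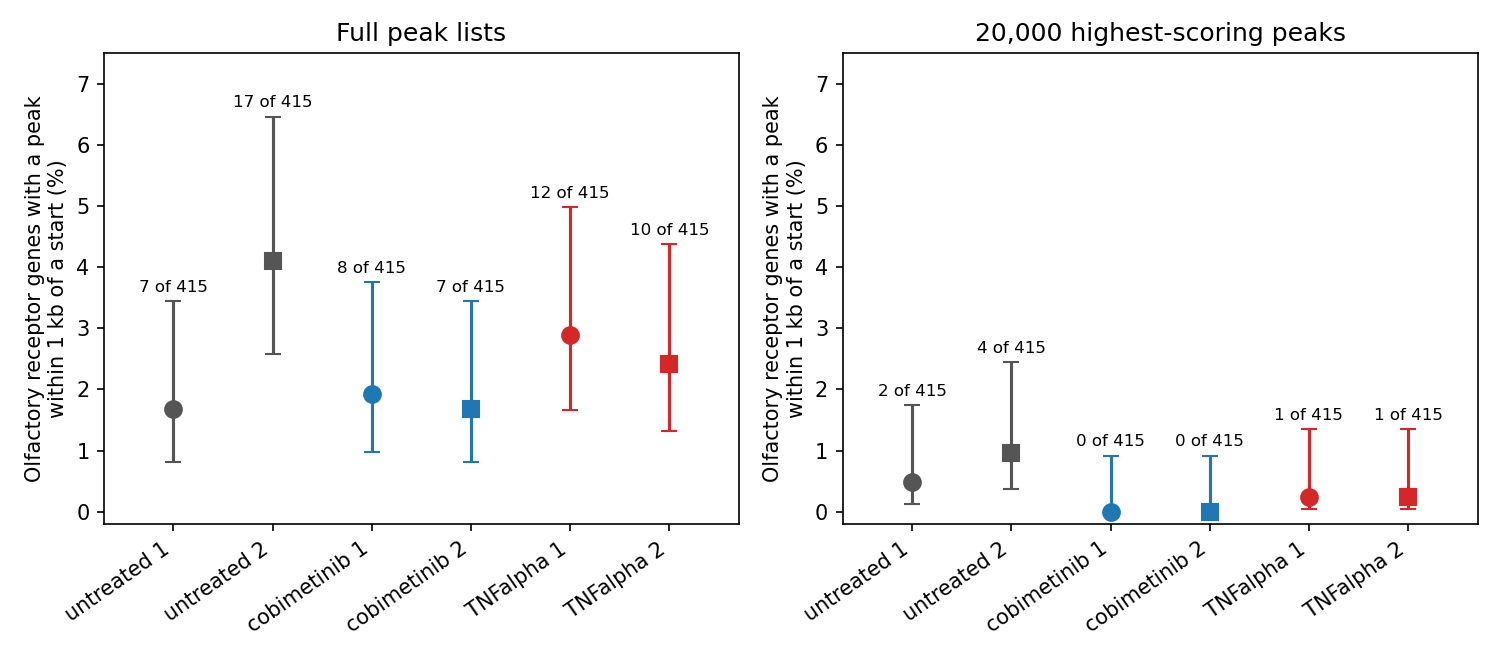
Percent of the 415 olfactory receptor genes with a peak within 1 kb of a start, for the full lists (left) and the 20000 highest-scoring peaks (right). Points are libraries, circles replicate 1 and squares replicate 2, and bars are 95% Wilson intervals. Untreated 2 was highest in both panels, with 17 and 4 genes (1 in the right panel with its tied peaks left out), and the 2 cobimetinib libraries had none in the right panel.

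How many of the 4 genes in untreated 2 belong to its highest peaks depended on ties. Its last selected score was 44, a score that 7102 of its peaks shared, and 2177 of these were kept in the order of the file. In the other 5 libraries between 332 and 533 peaks shared the last score. The file runs through the chromosomes as text, so the kept ties in untreated 2 reached chromosome 15. Of its 4 genes, OR2M5 on chromosome 1 (rank 18467), OR51E1 on chromosome 11 (rank 18792) and OR11H4 on chromosome 14 (rank 19692) stood at the tied score of 44. The remaining gene was OR2A7, with a score of 49 at rank 11930. With the tied peaks left out, untreated 2 had 1 marked gene, and the counts of the other 5 libraries stayed at 2, 0, 0, 1 and 1.

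Within a library each shorter selection lies inside the longer ones, so the number of marked genes cannot fall as more peaks are used. With the 40000 highest peaks the count was 2 in untreated 1, 5 in untreated 2, 2 in cobimetinib 1, 5 in cobimetinib 2, 4 in TNFalpha 1 and 2 in TNFalpha 2. With the 60000 highest peaks it was 5, 9, 3, 7, 5 and 7 in the same order. The share of all protein-coding genes marked was 41.9% in untreated 2 and between 55.4% and 61.4% in the other libraries with 40000 peaks, and 49.5% and between 58.6% and 64.0% with 60000. At these equal lengths cobimetinib 2 was at or next to the highest count, although its full list, the shortest, shared the lowest count of 7. Across the 6 full lists, the share of marked genes rose with the number of peaks (Pearson r = 0.827, p = 0.0361, and Spearman rho = 0.928, p = 0.0222, exact permutation over 720 orders, two-sided, n = 6 libraries). Adjusted over both coefficients by the Benjamini-Hochberg method, both p-values were 0.0361 by the exact permutation. Without cobimetinib 2 and untreated 2, the libraries farthest from the median number of peaks, r was 0.681 over 4 libraries. Leaving out any library in turn gave r between 0.742, without untreated 2, and 0.922, with exact permutation p-values between 0.05 and 0.183, so that the p-value below 0.05 rested on having all 6. The labels give no batch within which to repeat the relation.

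**Figure D2:**
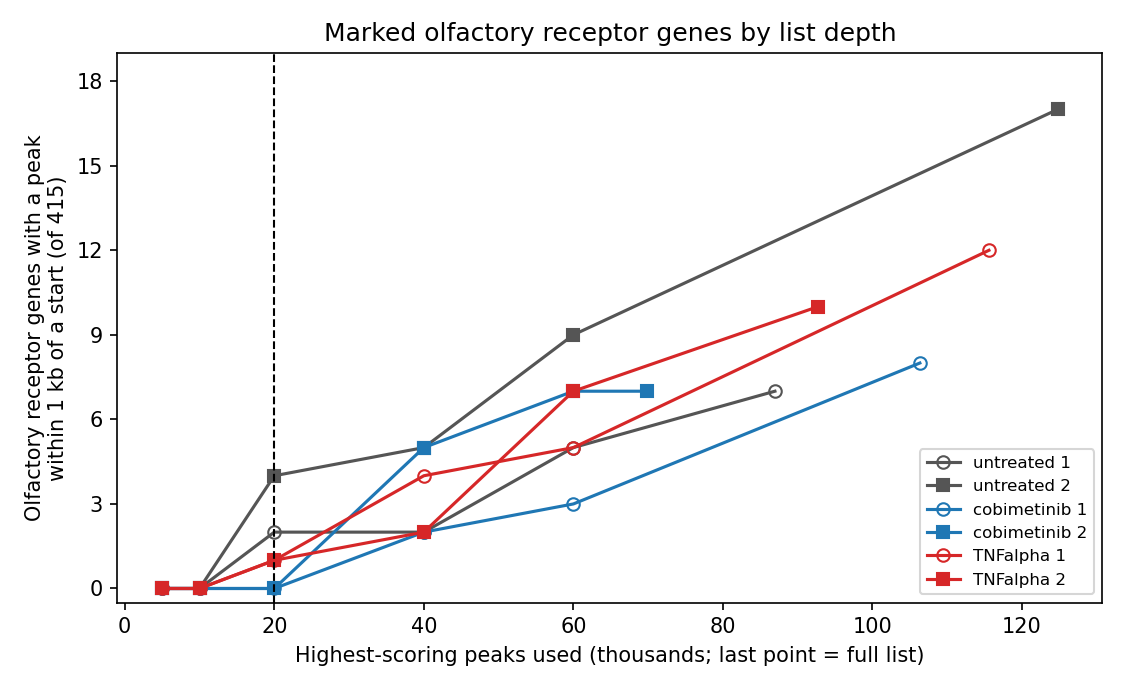
Number of olfactory receptor genes (of 415) with a peak within 1 kb of a start (y axis) against the number of highest-scoring peaks used (x axis), with 1 line per library and its last point at the full list. All libraries were at 0 up to 10000 peaks, and untreated 2 reached 17 at its full 124771 peaks. The dashed line marks 20000 peaks.

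The peaks near olfactory receptor genes scored at or below the middle of their lists. The median score of the best peaks, beside the median of the whole list, was 32 against 38 in untreated 1, 31 against 31 in untreated 2 and 32 against 35 in cobimetinib 1. It was 39 against 39 in cobimetinib 2, 30 against 32 in TNFalpha 1 and 35.5 against 36 in TNFalpha 2. The lowest score in every list was 20. The highest score reached in the family was 82, in untreated 1. Of the 17 best peaks in untreated 2, 11 had the width of 169 bp that 34.9% of its list shared. Of the best peaks in the other libraries, none in untreated 1, 1 in cobimetinib 1, none in cobimetinib 2, 3 in TNFalpha 1 and 5 in TNFalpha 2 had the commonest width of their own list. The part of this width in the counts was not tested. Of 61 marks of a gene in a library, 11 (18.0%) were peaks that covered the start itself.

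The 2 untreated libraries spanned the range of all treated libraries, while both TNFalpha libraries lay above both cobimetinib libraries in the full lists. The mean share in the full lists was 2.89% ± 1.70 (SD, n = 2) in untreated, 1.81% ± 0.170 in cobimetinib and 2.65% ± 0.341 in TNFalpha libraries. Cobimetinib was 1.08 percentage points below untreated (difference -1.08, p = 1.0, exact permutation test, two-sided, 2 against 2). TNFalpha was 0.241 points below untreated (difference -0.241, p = 1.0) and 0.843 points above cobimetinib (p = 0.333), both by the same exact permutation test. With 2 libraries against 2 the smallest p that this test can give is 0.333, so the design cannot reach 0.05. Without untreated 2 the differences of cobimetinib and TNFalpha from untreated were 0.120 and 0.964 points, both of the opposite sign. Libraries of different conditions differed by 0.0402 points more than replicates did (one-sided exact permutation over 15 pairings, p = 0.6, smallest possible 0.0667). In the lists of 20000 peaks, cobimetinib was below untreated by 0.723 points (difference -0.723), TNFalpha was below untreated by 0.482 (difference -0.482), and TNFalpha was above cobimetinib by 0.241, each with an exact permutation p of 0.333. With the tied peaks left out the differences from untreated were -0.361 for cobimetinib and -0.120 for TNFalpha, and without untreated 2 they were -0.482 and -0.241. Marked in both libraries of 1 condition and in none of the other 4 was a single gene, OR2A12 in TNFalpha.

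Few genes were marked repeatedly. Of the 415 genes, 374 were marked in no full list, 34 in 1, 2 in 2, 2 in 3, 1 in 5 and 2 in all 6. Of the 34 genes marked once, 12 were marked in untreated 2. The share marked in at least 1 full list was 9.88% (41 genes) against 74.5% of all protein-coding genes, and the share marked in 3 or more was 1.20% (5 genes) against 64.2%. In at least 1 of the lists of 20000 peaks, 6 genes (1.45%) were marked against 58.9% of all protein-coding genes. Of protein-coding genes outside the family, 24.2% were marked in no full list and 53.0% in all 6. The 5 recurrent genes were OR51B5, OR1F1, OR51M1, OR2A7 and OR52D1.

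OR51B5 (chr11:5303444-5505652, minus strand), a class I receptor gene, was marked in all 6 libraries, but not at the start of its coding transcript. The best peak had rank 17053 in untreated 1, 122525 in untreated 2, 28406 in cobimetinib 1, 31996 in cobimetinib 2, 18445 in TNFalpha 1 and 19095 in TNFalpha 2. Untreated 1 and both TNFalpha libraries were therefore within the 20000 highest peaks, and both cobimetinib libraries and untreated 2 were outside them. The scores were 82, 20, 49, 41, 64 and 55 in the same order, and scores are not comparable between lists. The peaks lay at chr11:5504049-5505816, beside a distal start that transcripts of neighbouring globin genes share. The start of the coding transcript, 162128 bp away, had no peak within 1 kb in any library. The peak cannot be assigned to OR51B5 rather than to its neighbours from these data.

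OR1F1 (chr16:3188204-3224779, plus strand), a class II gene, was the only member besides OR51B5 marked in all 6 libraries. Its best peak had rank 17088 in untreated 1, 90624 in untreated 2, 36892 in cobimetinib 1, 25958 in cobimetinib 2, 31076 in TNFalpha 1 and 48129 in TNFalpha 2. Only untreated 1 placed it within the 20000 highest peaks. The peaks ended between 146 and 325 bp before the start. RefSeq places a proline transfer RNA gene, TRP-TGG3-5, at chr16:3188094-3188165, 39 bp from the start, within the promoter printed above, and all 6 best peaks ended before it. OR1F1 was the only one of the 415 genes with a RefSeq transfer RNA gene within 1 kb of a start. Its promoter was also the one among the recurrent genes with 10 or more CpG dinucleotides. Of the 8 such promoters in the family, 5 belonged to genes marked in no library.

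OR51M1, a class I gene in the same array as OR51B5, was marked in 5 libraries, at ranks 68766 in untreated 1, 52052 in untreated 2, 65281 in cobimetinib 1, 34169 in cobimetinib 2 and 81097 in TNFalpha 1. TNFalpha 2 had no peak there. All 5 ranks lay outside the 20000 highest peaks. The peaks counted toward 2 different starts, at position 5389377 of chromosome 11 in both untreated libraries and at 5383812 in the cobimetinib libraries and TNFalpha 1. In untreated 1 the peak covered the start, and in untreated 2 it lay 856 bp away. The distance was 208 bp in cobimetinib 1, 40 bp in cobimetinib 2 and 998 bp in TNFalpha 1, the last close to the limit of 1 kb. The gene therefore counted as marked in 5 libraries although no position was shared by all of them.

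OR2A7 (chr7:144257663-144264792, minus strand) and OR52D1 were marked in 3 libraries each. OR2A7 had rank 57138 in untreated 1, 11930 in untreated 2 and 38320 in cobimetinib 2. In untreated 1 and cobimetinib 2 the peak covered the start, and in untreated 2 it lay 118 bp upstream. OR2A7 belongs to 24 genes of the family for which every start window has a near-identical copy elsewhere in hg38 (98% identity or more over at least 80% of the window), and it was the only one of the 24 to be marked. The authors kept reads of a mapping quality above 10, a filter that removes reads fitting several places equally well. The part of this filter in the counts was not tested. OR52D1 had rank 57917 in untreated 1, 65282 in cobimetinib 1 and 61646 in TNFalpha 2, with a peak 650, 737 and 304 bp from its start. It was marked in 1 library of each condition.

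**Figure D3:**
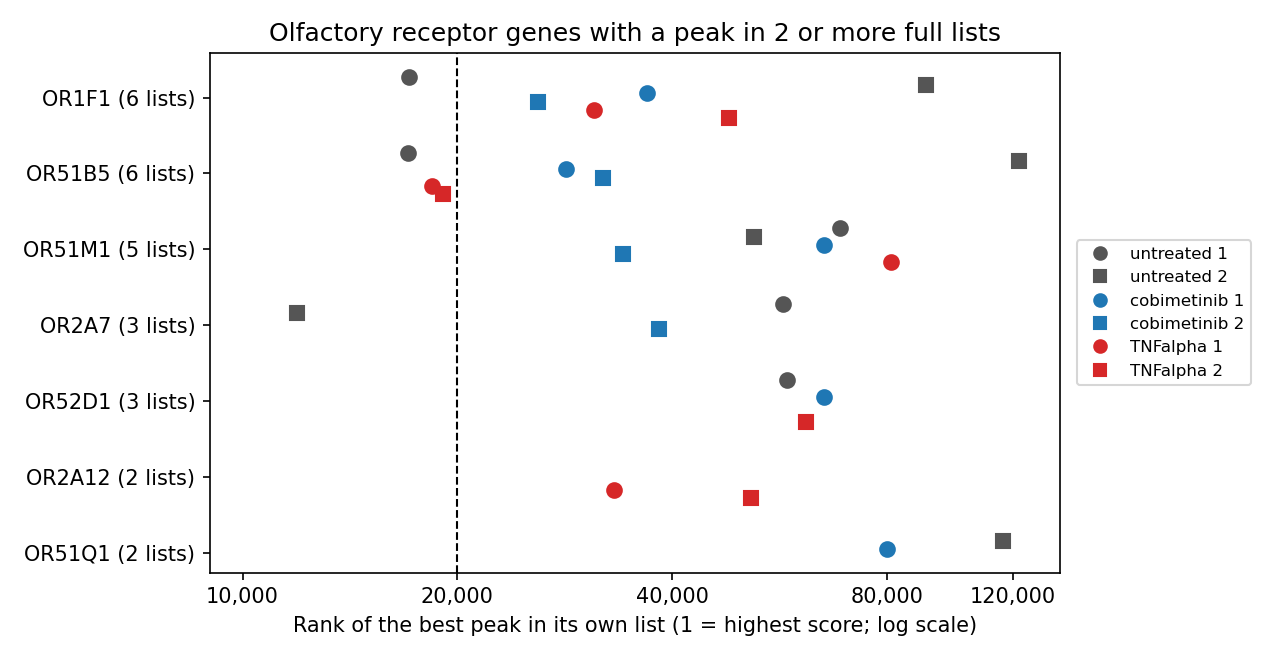
Rank of the best peak within 1 kb of a start in its own list (x axis, log scale, 1 is the highest score) for the 7 olfactory receptor genes marked in 2 or more full lists. Colours are conditions, circles replicate 1 and squares replicate 2, and the dashed line is rank 20000. Only OR51B5, OR1F1 and OR2A7 had a peak left of the line, and the untreated libraries lay at both ends for OR51B5 and OR1F1.

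OR2A12 (chr7:144086278-144098953) was the gene marked in both TNFalpha libraries alone, at rank 33121 in TNFalpha 1, where the peak covered the start, and 51527 in TNFalpha 2, where it lay 755 bp away. Both ranks lay outside the 20000 highest peaks. OR51Q1, the other gene marked in 2 lists, was marked in untreated 2 at rank 116436 and cobimetinib 1 at rank 80030, which are different conditions.

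Marks were spread unevenly over the family. Of class I genes, 9 of 57 (15.8%) were marked in at least 1 full list and 3 of 57 (5.26%) in 3 or more, against 32 of 358 (8.94%) and 2 of 358 (0.559%) of class II. A single array of 11 class I genes, at chr11:5301014-5581884, held 4 of those 9 and all 3 of those marked in 3 or more. The difference between the classes therefore rests largely on that array. Genes with 2 or more annotated starts were marked in 21 of 113 cases (18.6%) and genes with 1 start in 20 of 302 (6.62%). On chromosome 7, 7 of 17 genes (41.2%) were marked, on chromosome 11 19 of 178 (10.7%), and on chromosome 1 1 of 65 (1.54%). Over the whole family the share was 9.88%. Of the 11 genes with a start within 1 kb of a start of a gene outside the family, 3 (27.3%) were marked. Of the 404 genes without such a start, 38 (9.41%) were marked. The median distance to the nearest start of another protein-coding gene was 55593 bp for the marked genes and 90933 bp for the unmarked genes. These shares are descriptions over the members, which share arrays and starts.

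The wider arrays were also poor in peaks. Joining olfactory receptor genes less than 100 kb apart gave 23 clusters of 5 or more, with 337 genes over 9.6 Mb. The full lists placed 73 peaks in them in untreated 1, 147 in untreated 2, 68 in cobimetinib 1, 50 in cobimetinib 2, 121 in TNFalpha 1 and 87 in TNFalpha 2. This was 5.21 to 15.3 peaks per Mb, against 23.8 to 42.5 per Mb over the genome. Merged over libraries within 100 bp, these peaks formed 385 regions, of which 323 (83.9%) were found in 1 library and 8 in all 6. Of the 23 clusters, 12 held no region found in 3 or more libraries.

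A pair of clusters held 29 to 52 of these peaks per library. The cluster at chr11:5301014-5581884, with 11 genes including OR51B5, OR51M1 and OR52D1, held 14 to 27 peaks per library, a mean of 76.0 per Mb. The cluster at chr7:143935233-144322737, with 11 genes including OR2A7 and OR2A12, held 10 to 28, a mean of 49.5 per Mb. In the other 21 clusters, over 8.93 Mb, the density was 2.91 peaks per Mb in untreated 1, 11.1 in untreated 2, 3.92 in cobimetinib 1, 1.79 in cobimetinib 2, 7.73 in TNFalpha 1 and 6.49 in TNFalpha 2. The genome as a whole was 10.2-fold denser in untreated 1, 3.83-fold in untreated 2, 9.24-fold in cobimetinib 1, 13.3-fold in cobimetinib 2, 5.09-fold in TNFalpha 1 and 4.86-fold in TNFalpha 2. Both TNFalpha libraries and untreated 2 were thus below the other 3 in this ratio. Untreated 2 lacked a peak in 1 of the 23 clusters and TNFalpha 1 in 3, while cobimetinib 1 and TNFalpha 2 each lacked one in 6, cobimetinib 2 in 11 and untreated 1 in 12. The largest cluster, 46 genes at chr11:55554307-56820516, held 3 peaks in untreated 2 and none in the other 5 libraries. In untreated 2, 52.4% of the cluster peaks had its commonest width of 169 bp, against 34.9% of its whole list. The commonest width of the list was also the more frequent in the clusters in untreated 1 (15.1% against 9.28%), TNFalpha 1 (19.8% against 15.7%) and TNFalpha 2 (25.3% against 15.9%). It was not in cobimetinib 1 (11.8% against 12.02%) or cobimetinib 2 (4.0% against 12.2%).

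**Figure D4:**
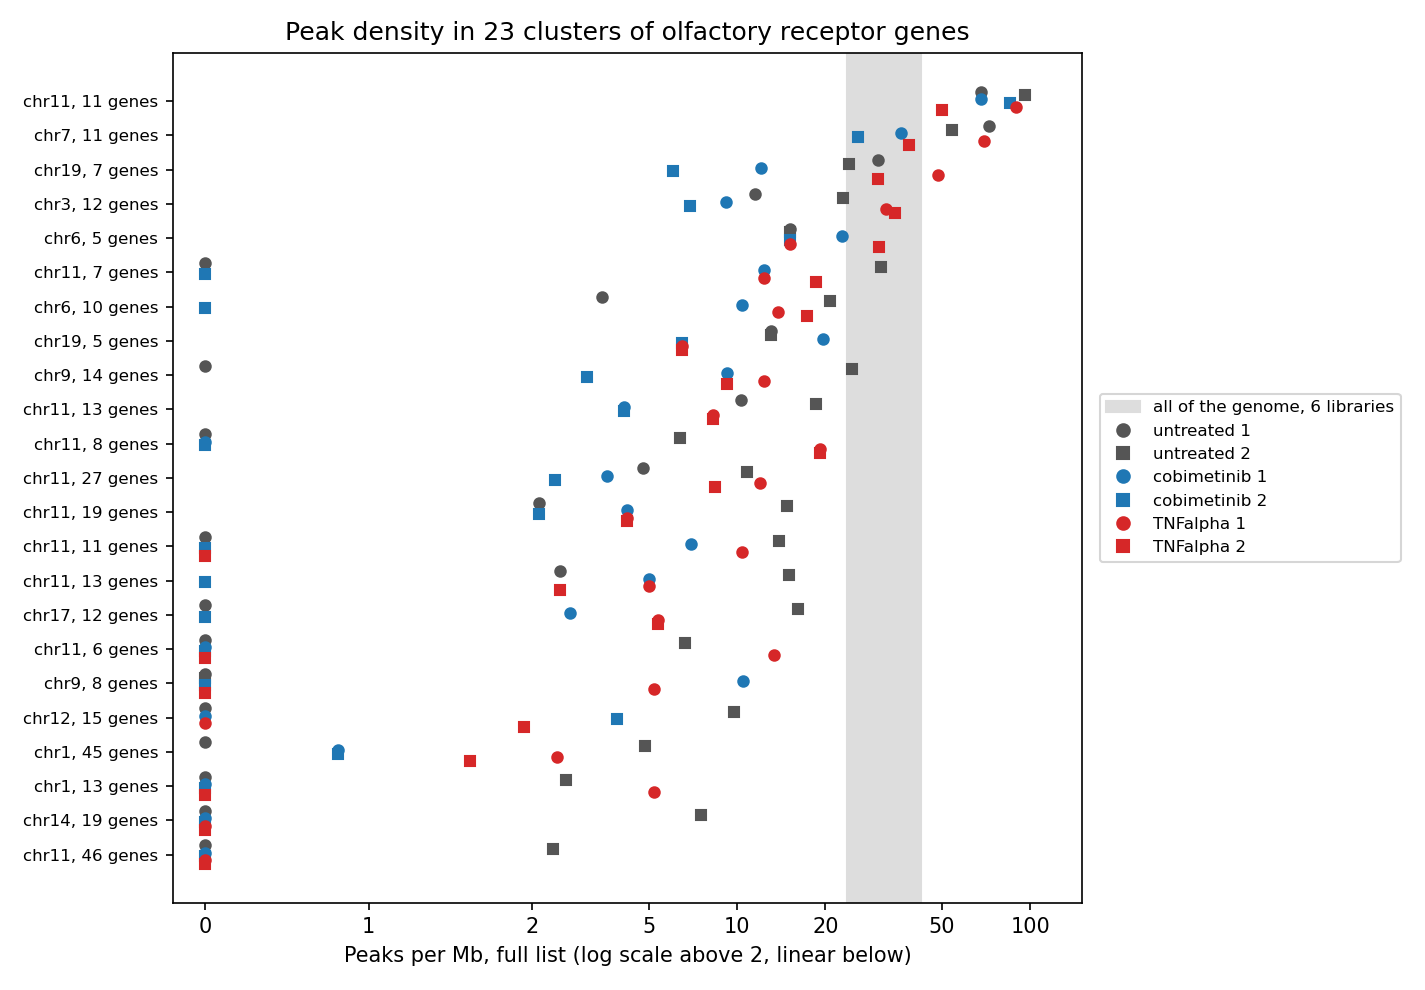
Peaks per Mb of the full list (x axis, logarithmic above 2 and linear below) in each of 23 clusters of 5 or more olfactory receptor genes, named by chromosome and number of genes and ordered by mean density. Points are libraries, and the grey band is the range of the genome-wide density, 23.8 to 42.5. All libraries of the top chromosome 11 cluster lay above the band, and the 46-gene cluster had peaks in untreated 2 alone.

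The strongest peak of the clusters was not at a start. It formed the region chr7:144234949-144236678, 1730 bp inside an intron of OR2A42 and 2927 bp from its nearest start, and a lncRNA gene, ARHGEF35-AS1, overlaps it on the other strand. It ranked 16 in untreated 1, 162 in untreated 2, 21 in cobimetinib 1, 17 in cobimetinib 2, 16 in TNFalpha 1 and 16 in TNFalpha 2. It was thus among the highest peaks of the whole genome in all 6 lists. The region is 99.65% identical over 1730 aligned bases to chr7:144314291-144316020, inside OR2A1. A second region at that copy, chr7:144314707-144316254, outside the exons of OR2A1, ranked 3477 in untreated 1, 2435 in cobimetinib 1, 2578 in cobimetinib 2, 2660 in TNFalpha 1 and 4712 in TNFalpha 2, and was missing from untreated 2. The part of duplicated sequence in these ranks was not tested. Neither OR2A42 nor OR2A1 had a peak within 1 kb of a start. These regions were chosen after their values were seen.

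Of the other 7 regions found in all 6 libraries, several lay at genes outside the family that sit within an array. One covered the start of the ubiquitin ligase gene TRIM68 (chr11:4607343-4608501) and ranked between 12245 and 37458, and another covered that of the zinc finger gene ZNF317 (chr19:9139916-9141344), which ranked between 2324 and 9951. Another (chr7:144196565-144197357) was 686 bp from a start of ARHGEF35 and ranked between 484 and 12113. It has copies on chromosome 7 at 99.24% and 97.98% identity, and their part in its ranks was not tested. Regions starting at chr11:5475928, chr11:58058723 and chr3:98482759 lay 11725, 27770 and 13279 bp from the nearest olfactory receptor start. Their distances to the nearest start of another protein-coding gene were 28644, 246495 and 33142 bp. Only 1 of the 8 regions, that of OR51B5, was within 1 kb of an olfactory receptor start.

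A wider window reached more of these peaks. Within 5 kb of a start, 34, 55, 35, 24, 45 and 42 genes of the family had a peak in untreated 1, untreated 2, cobimetinib 1, cobimetinib 2, TNFalpha 1 and TNFalpha 2, or 5.78% to 13.3%, against 69.3% to 76.0% of all protein-coding genes. The number marked in 3 or more libraries rose from 5 to 30 (7.23% of the family), against 74.3% of all protein-coding genes. Of the 30, 9 lay in the dense chromosome 11 cluster and 4 in the dense chromosome 7 cluster. Within 50 kb the family's share was 62.7% in untreated 2 and between 29.4% and 45.3% in the other libraries, against 88.2% to 94.6% of all protein-coding genes. Within 0.5 kb, between 4 and 11 genes of the family were marked, 0.964% to 2.65%, against 53.7% to 63.3%.

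**Figure D5:**
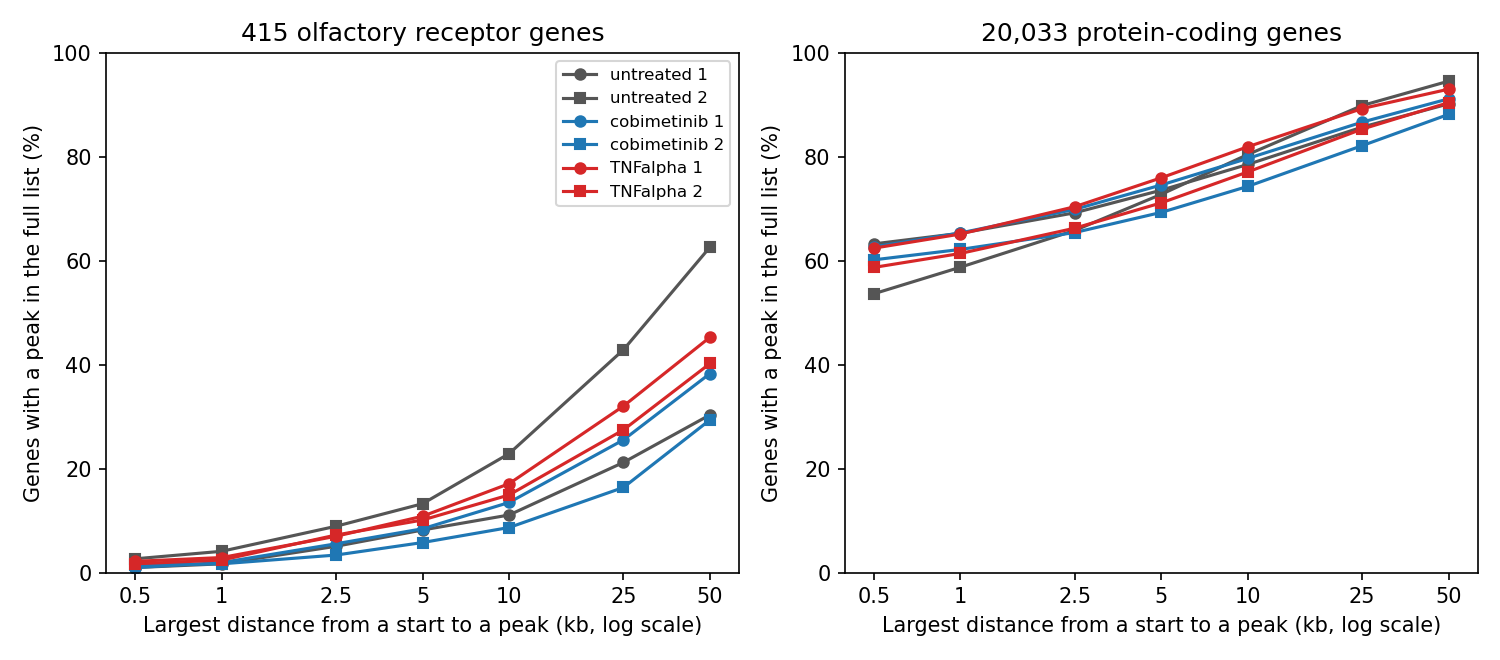
Percent of genes with a peak in the full list (y axis) within a given distance of a start (x axis, kb, log scale), for the 415 olfactory receptor genes (left) and all 20033 protein-coding genes (right), with 1 line per library. At 0.5 and 1 kb untreated 2 was the highest library on the left and the lowest on the right.

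Other families little used outside their own tissue were set beside the olfactory receptors, with ribosomal protein genes as a family that every cell uses. Of 40 beta-defensin genes (DEFB, antimicrobial peptides of epithelia), 1, 0, 0, 1, 2 and 0 were marked in the full lists of untreated 1, untreated 2, cobimetinib 1, cobimetinib 2, TNFalpha 1 and TNFalpha 2. Of 94 keratin-associated protein genes (KRTAP, of the hair shaft), 8, 7, 9, 4, 10 and 10 were marked. Of 24 bitter taste receptor genes (TAS2R), 6 were marked in untreated 1, 2 in TNFalpha 2 and 1 in each of the other 4. The KRTAP share was above the olfactory receptor share in every library, at 4.26% to 10.6%. The TAS2R share was also above it in every library, but only narrowly in untreated 2 (4.17%, from 1 gene, against 4.10%). The DEFB share was above it in untreated 1, cobimetinib 2 and TNFalpha 1. In the other libraries no DEFB gene was marked. Of 78 cytosolic ribosomal protein genes, 73 to 77 were marked in the full lists. In the lists of 20000 peaks they numbered 54 in untreated 2 and 72 to 76 in the other libraries. In that selection untreated 2 was lowest for the ribosomal protein genes and had the most olfactory receptor genes, 4, of which 1 remained with the tied peaks left out, against 2 in untreated 1.

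Genes known from the olfactory sensory neuron, for signalling, receptor transport or transcription, were marked in part. Whether their starts are shared with neighbouring genes was not tested. From a list of 17 genes, 7 were marked in all 6 libraries. Among them GNAL, which encodes the G protein alpha subunit coupled to the receptors, had ranks from 596 to 2498, and RIC8B, a factor that acts on this subunit, from 190 to 3753. ADCY3, the adenylyl cyclase of the pathway, ranked from 11288 to 39324, and CNGA4, a subunit of the cation channel, from 5220 to 15284. The transcriptional regulators LDB1, KDM1A (a histone demethylase) and ATF5 completed the 7. The marker of mature olfactory neurons OMP, the channel subunit CNGA2, the receptor transport proteins RTP1 and RTP2, STOML3 and the transcription factor EBF1 were marked in no library. CNGB1, another channel subunit, and ANO2, a chloride channel, were marked in TNFalpha 1 alone, LHX2, a homeodomain factor, in 2 libraries and REEP1 in 4. Beside these 7 of 17, 53.0% of the protein-coding genes outside the receptor family were marked in all 6 libraries.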

How the data were processed

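H3K27ac CUT&RUN libraries of HCT116 cells (untreated, cobimetinib and TNFalpha, 2 each) were analysed as peak lists. According to the study's methods, the authors trimmed reads with BBDuk, aligned them to hg38 with BWA (0.7.15), kept mapping quality above 10 and called peaks with MACS2 (2.1.1) per library with no background control, both as paired-end and as single-end data. They merged both sets and kept the maximum score. The score as deposited is a whole number of at least 20 and was used here only to rank peaks within a list, since its scale across lists and their depth are unknown. Merging can join neighbouring peaks, and the mapping filter can remove reads from duplicated genes.

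Peaks were matched to all transcript starts of GENCODE release 44 within 1 kb, with Python 3.11.15, numpy 2.4.6 and scipy 1.17.1. The 20000 highest peaks were taken with ties in file order. Copies were found with minimap2 2.31-r1302. RefSeq promoters matched 308 of 415 genes and were used only for printed sequences, so composition was read from hg38. Tests were exact permutations over libraries. Counting was checked on simulated peaks. Members and lists were chosen with earlier results of these data known. Named genes were those marked in 4 or more full lists or 2 or more lists of 20000 peaks, those marked in both libraries of 1 condition only, and the transduction list. Other genes were named after their values were seen. Alternatives were other windows, starts, list lengths, tie rules, a score of 30 or more, and leaving out each library. The IgG libraries are not analysed here.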

Additional observations from a re-analysis of the deposited data

How the results depend on the processing

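In all, 121 alternative values were computed. The differences between conditions cannot pass the threshold with 2 libraries against 2, so for them only the direction and size could change. Leaving out each library in turn gave -2.29 to 0.120 points for cobimetinib minus untreated and -1.45 to 0.964 for TNFalpha minus untreated in the full lists, 3 to 5 genes in 3 or more libraries, and r of 0.742 to 0.922 between marked share and number of peaks. That correlation also had a p above 0.05 within 500 bp (r = 0.641), without genes sharing a start (0.787) and with scores of 30 or more (0.655). TNFalpha minus untreated turned to 0.120 points within 500 bp and with only the 5′ end of the gene, and the between-condition excess turned to -0.0803 under both. Within 5 kb the mean share was 9.44% (full) and 1.69% (20000 peaks), with 30 genes in 3 or more libraries. With the 10000 highest peaks every difference was 0. With 40000, cobimetinib minus untreated was 0, TNFalpha minus cobimetinib -0.120 and the mean 0.803%. Without genes sharing a start, TNFalpha minus cobimetinib was 0 among 20000 peaks. The cause of these changes was not tested.

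A replicate block, pairing libraries of the same number, gave the same differences, -1.08, -0.241 and 0.843 points in the full lists, with sign-flip p no lower than 0.5, the smallest it can give, and changed no call. Nothing in the labels says that a number marks a shared batch, and deviations from the condition mean had opposite signs at number 1 (-1.20 in untreated, 0.120 in cobimetinib, 0.241 in TNFalpha). Lists without read counts limit all values to presence or absence of a peak.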
